A study of Mus musculus with 25 samples.

Results

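The choroid plexus genes examined here are 10 genes chosen by symbol: Ttr, Enpp2, Sostdc1, Kl, Prlr, Folr1, Slc4a5, Aqp1, Kcne2 and Clic6. They were taken from 24421 gene symbols counted in each of 25 mouse hippocampal libraries. All 10 passed the filter on low counts that left 15912 genes for testing. The question was whether these genes moved together with Ttr from pool to pool or moved apart from it, as Prlr was already known to do in the seizure libraries when the question was set. Prlr is therefore described as a known case, and its seizure result is not an independent discovery.

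The series compared mice with 1 disrupted copy of Scn1a (Scn1a+/-, a model of Dravet syndrome) with wild-type mice. Animals were [129S6/SvEvTac x C57BL/6]F1 (F1) or 129S6/SvEvTac (129S6), at postnatal day 14 (P14) or 24 (P24). The P24 F1 set held 3 libraries of Scn1a+/- mice with seizures, 2 of Scn1a+/- mice with no seizures named in their labels, and 3 of wild type. The P24 129S6 set held 3 libraries labelled Scn1a+/- and 3 labelled wild type. The P14 F1 set held 3 Scn1a+/- and 3 wild-type libraries, and the P14 129S6 set 3 Scn1a+/- and 2 wild-type libraries. A seizure pool held 3 to 4 mice and any other pool 12 to 16, so seizures and small pools cannot be told apart. The labels give neither the sex of the mice nor the time between seizure and dissection. They do not say whether the pools of a group came from separate litters or days, so the p-values reflect how much these pools differed and no more.

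Scn1a itself was lower with the Scn1a+/- label in 3 of the 4 settings and higher in P24 129S6. Levels are given as CPM, counts scaled to the same effective library size in every sample. In P24 129S6 the labelled Scn1a+/- libraries had 135, 144 and 142 CPM of Scn1a, and the labelled wild-type libraries had 110, 109 and 111 CPM. The genotypes of these 6 libraries are therefore written as labelled. Count totals were 19553419 to 22026211 in the seizure libraries, 11606720 to 17813918 in P24 F1 Scn1a+/- without seizures, 21816220 to 24011969 in P24 F1 wild type, and 7436442 to 25520050 over all 25 libraries.

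The choroid plexus is a sheet of secretory epithelium in the brain ventricles that makes cerebrospinal fluid and forms a barrier to the blood. It lies against the hippocampus in the lateral ventricle and can be carried along when the hippocampus is dissected. Its epithelium secretes carrier proteins and signals, displays receptors that take up hormones and vitamins, and moves water and ions through channels and cotransporters. In bulk RNA, fewer choroid plexus cells in a pool and less RNA per cell cannot be told apart.

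By role the 10 genes fall into secreted factors, receptors, and ion or water transport. Ttr encodes transthyretin, the carrier of thyroid hormone. Enpp2 encodes autotaxin, a secreted enzyme that makes lysophosphatidic acid and is also made by oligodendrocytes. Sostdc1 encodes a secreted antagonist of BMP and Wnt signals. Kl encodes klotho, the co-receptor for the hormone FGF23, Prlr the prolactin receptor, and Folr1 a folate receptor. Slc4a5 encodes a sodium bicarbonate cotransporter, Aqp1 a water channel, Kcne2 a potassium channel accessory subunit, and Clic6 a member of the chloride intracellular channel family. The genes lie on 7 chromosomes, and Kcne2 and Clic6 are 200013 bases apart on chromosome 16 (mm10).

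Prlr was the member that differed between seizure and other libraries in every setting tried, so its annotated promoters are shown, with that of Kcne2, a channel subunit whose seizure differences did not pass the test, beside them. RefSeq promoter windows (GRCm38.p6, the assembly of mm10) of 300 bases, 250 before to 50 after a start site, matched 5 of the 10 genes in 8 windows. Both strands were searched for TTCNNNGAA (STAT), TGANTCA (AP-1), TAATCC (OTX2) and TGACGTCA (CRE). Capitals mark matches. All windows printed are on the plus strand, at chr15:10176988-10177287, chr15:10223656-10223955 and chr15:10293401-10293700 for Prlr and chr16:92292139-92292438 for Kcne2.
Prlr promoter 1: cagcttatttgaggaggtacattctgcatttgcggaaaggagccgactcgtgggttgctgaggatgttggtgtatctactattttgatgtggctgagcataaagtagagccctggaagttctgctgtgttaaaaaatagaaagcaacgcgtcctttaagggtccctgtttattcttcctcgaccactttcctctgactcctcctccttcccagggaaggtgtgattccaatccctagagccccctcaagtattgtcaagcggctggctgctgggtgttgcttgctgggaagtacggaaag
Prlr promoter 2: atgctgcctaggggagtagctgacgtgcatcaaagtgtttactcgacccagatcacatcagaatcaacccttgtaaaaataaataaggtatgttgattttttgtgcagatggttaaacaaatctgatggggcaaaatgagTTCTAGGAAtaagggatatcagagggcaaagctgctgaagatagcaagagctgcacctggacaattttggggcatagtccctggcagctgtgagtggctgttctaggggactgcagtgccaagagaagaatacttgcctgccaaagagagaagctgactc
Prlr promoter 3: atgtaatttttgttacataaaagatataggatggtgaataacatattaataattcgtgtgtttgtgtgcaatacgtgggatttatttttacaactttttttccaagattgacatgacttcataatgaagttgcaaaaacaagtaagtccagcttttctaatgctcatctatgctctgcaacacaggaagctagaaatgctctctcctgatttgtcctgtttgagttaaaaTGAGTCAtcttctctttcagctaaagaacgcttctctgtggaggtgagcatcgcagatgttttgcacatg
Kcne2 promoter 1: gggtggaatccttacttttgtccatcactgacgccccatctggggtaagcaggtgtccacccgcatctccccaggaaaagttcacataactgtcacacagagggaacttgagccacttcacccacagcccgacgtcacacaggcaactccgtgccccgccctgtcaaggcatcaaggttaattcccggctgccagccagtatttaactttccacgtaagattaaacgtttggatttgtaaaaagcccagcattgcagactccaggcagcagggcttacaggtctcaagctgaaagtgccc
The second Prlr window held 1 STAT match, 110 bases before its start, and the third held 1 AP-1 match, 20 bases before its start. No other match was found in the 8 windows. The STAT letters occur in 8.3% and the AP-1 letters in 7.81% of 32851 windows of the same length, OTX2 in 7.06% and CRE in 1.79%. A match is a description of letters only, and which Prlr promoter was used in these libraries was not tested.

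Ttr was above the other members in every library. It took 0.0377% to 0.121% of all counts, and its lowest level of 382 CPM stood in P24 F1 Scn1a+/- library 2 and its highest of 1192 CPM in P14 129S6 Scn1a+/- library 3. Per kilobase of exon the median level over the 25 libraries was 358 CPM per kb for Ttr and 27.4 for Enpp2. The medians of Sostdc1, Kcne2, Kl, Clic6 and Aqp1 lay between 1.84 and 3.4 CPM per kb. Slc4a5, Prlr and Folr1 were lowest, at 0.861, 0.699 and 0.693 CPM per kb. Lengths are the union of all annotated exons of a gene (18561 bases for Prlr), so this order depends on the annotation. By CPM alone the median was 13 for Prlr, 4.99 for Slc4a5, 4.94 for Kcne2 and 4.57 for Folr1. Prlr had the widest range of the 10, with its highest library 8.99 times its lowest, while the other ratios ran from 2.72 (Enpp2) to 4.21 (Aqp1). The rarer members rest on few counts: Kcne2 had 17 to 166 counts per library and Folr1 21 to 200, against 2958 to 26267 for Ttr.

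**Figure D1:**
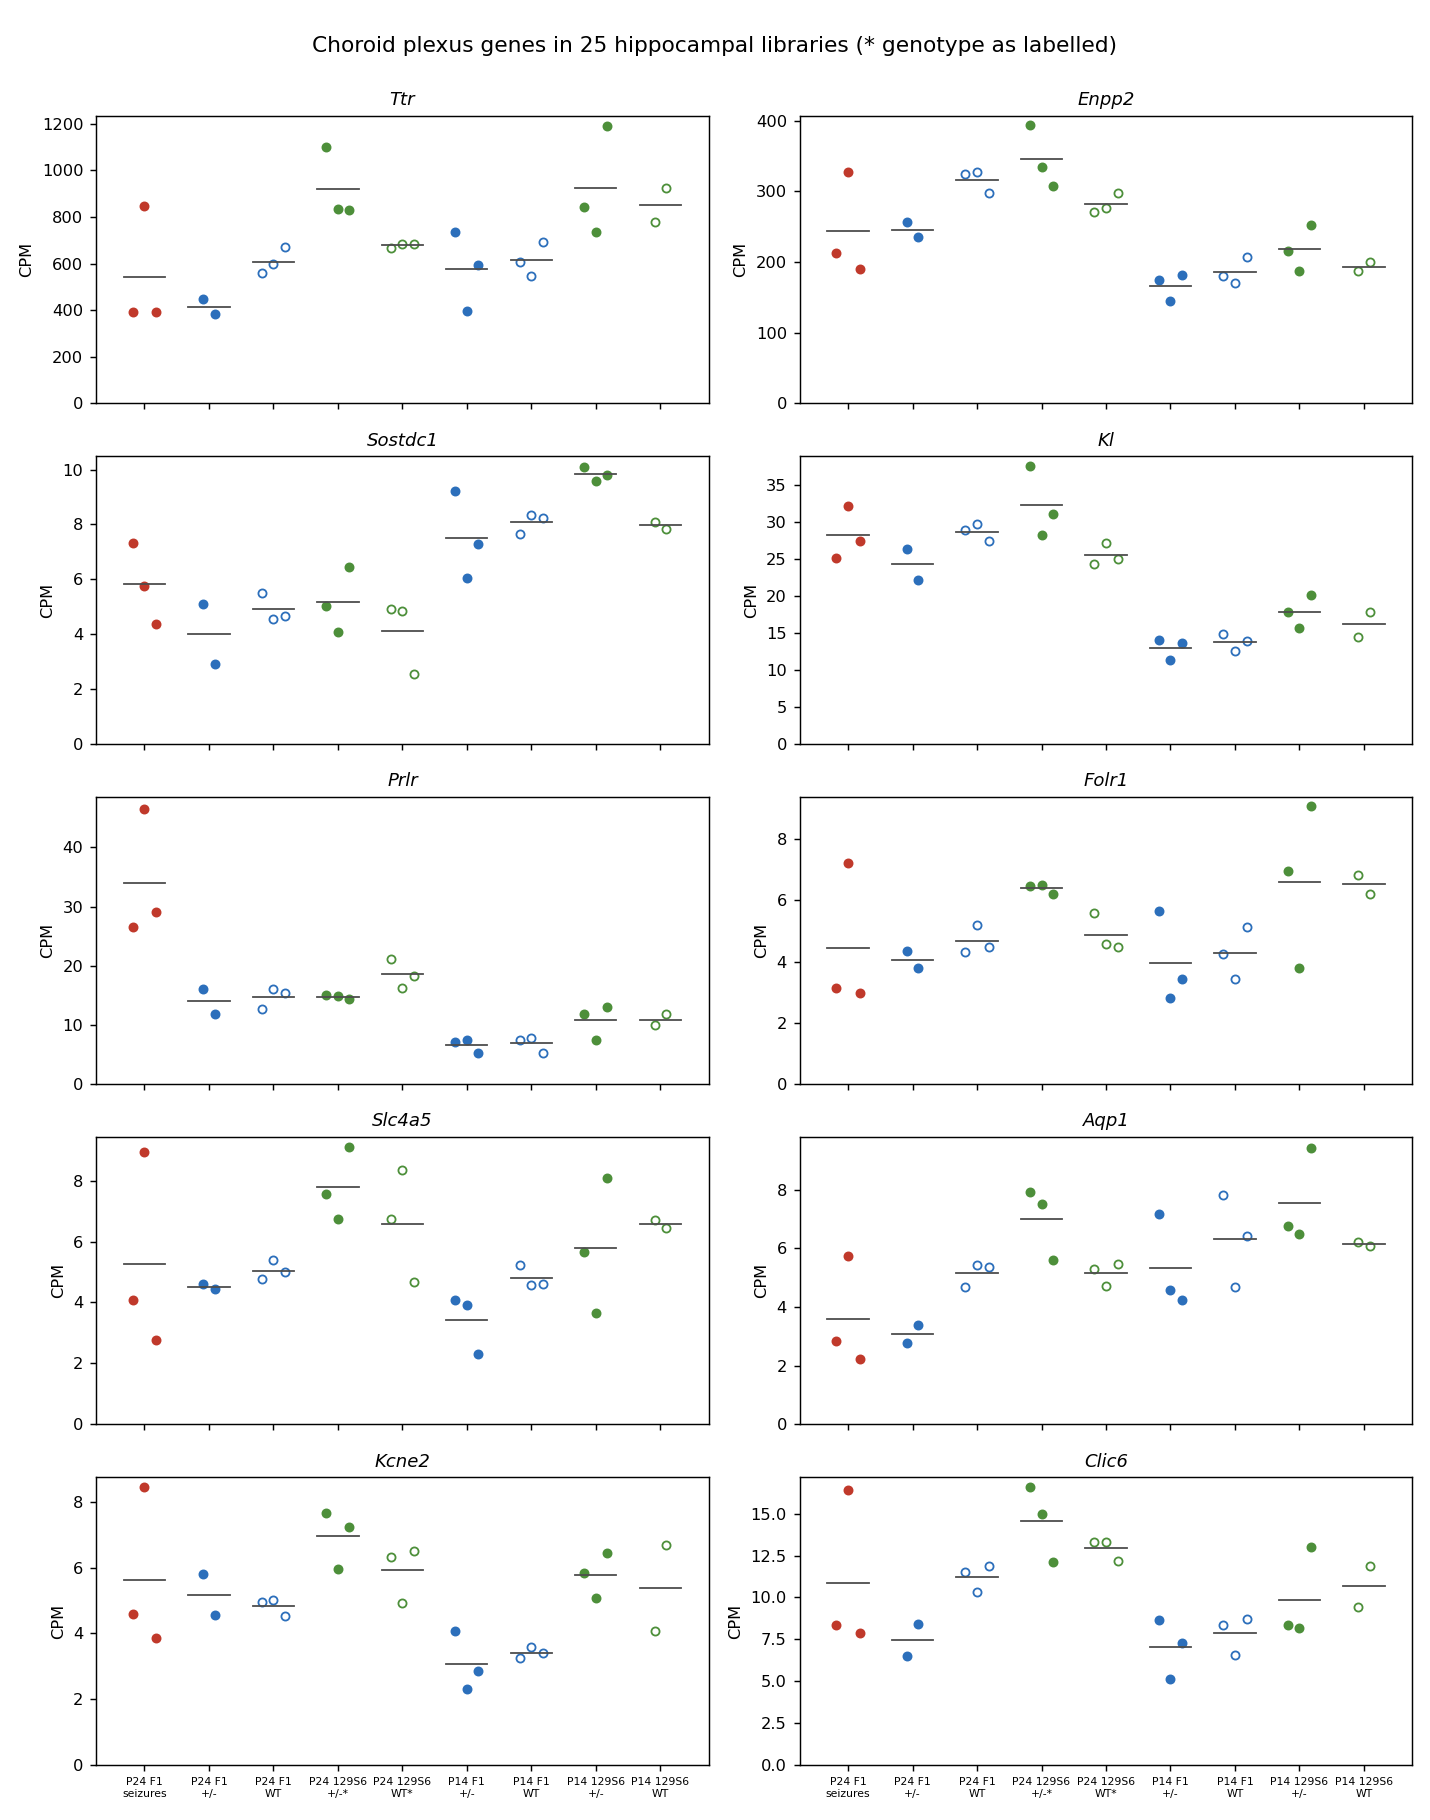
Level of each choroid plexus gene (CPM, linear axis from 0) in 25 libraries of 9 groups. Each point is 1 library, open points are wild type, the bar is the group mean, red marks seizures, blue F1 and green 129S6, and an asterisk marks genotypes as labelled; the 3 red Prlr points at 26.6 to 46.5 CPM lie above all other Prlr points.

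Most members followed Ttr from library to library within a group. The log2 CPM of Ttr was added to the model of the 9 groups, so the slope is the log2 change of a gene per log2 unit of Ttr between libraries of the same group. Calls are from edgeR's quasi-likelihood test, at an adjusted p (Benjamini-Hochberg, over all 15911 genes tested here) under 0.05. Of the 9 members other than Ttr, 6 had a called slope, all positive, against 0.415% of all genes called, 0.27% with a positive and 0.145% with a negative slope. The members' median slope was 0.79, and the median over all genes was -0.00885.

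Folr1 had a slope of 1.07 ± 0.17 (SE, adjusted p = 0.00126), Clic6 0.88 ± 0.12 (adjusted p = 0.000127) and Aqp1 0.88 ± 0.17 (adjusted p = 0.0137). Slc4a5 (0.93 ± 0.21) and Kcne2 (0.79 ± 0.16) were also called, with adjusted p of 0.0344 and 0.0206. The 95% intervals of these 5 receptor and transport genes all held a slope of 1, the value of a gene that changes in proportion to Ttr. The slope of Enpp2 was 0.55 ± 0.07 (adjusted p = 3.3e-05), and its interval, 0.42 to 0.68, lay below 1. Prlr (0.56 ± 0.14, adjusted p = 0.06) and Kl (0.37 ± 0.09, adjusted p = 0.0545) missed the threshold, and both intervals lay above 0 and below 1. Sostdc1 was nearest to 0, at 0.12 ± 0.19 (adjusted p = 0.842), with an interval of -0.25 to 0.49.

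The calls of these slopes rest on seizure library 2, which had 845 CPM of Ttr where the other seizure libraries had 394 and 391 CPM. Without it no member passed the test, with slopes of 0.46 for Enpp2 (adjusted p = 0.191), 0.84 for Clic6 (0.306), 1.01 for Folr1 (0.781), and 0.63, 0.70 and 0.52 for Kcne2, Aqp1 and Slc4a5 (0.992 each). Most of these slopes stayed near their values with it, and among them that of Slc4a5 moved most, to 0.52 against 0.93 with it. For Prlr, Kl and Sostdc1 the slopes without it are not given here. Slc4a5 also lost its call without seizure library 3 (0.78, adjusted p = 0.0569) and without P14 129S6 Scn1a+/- library 3 (0.85, adjusted p = 0.0973). The values of Clic6 show the pattern: it had 8.36, 16.4 and 7.84 CPM in the 3 seizure libraries, high where Ttr was high. In P14 129S6 Scn1a+/-, with 843, 737 and 1192 CPM of Ttr, Clic6 had 8.37, 8.14 and 13 CPM. Ttr also spread widely in P14 F1 Scn1a+/-, with 737, 398 and 594 CPM, and Clic6 had 8.67, 5.11 and 7.3 CPM there. Not every member followed Ttr in that group. Prlr had 7.16, 7.4 and 5.17 CPM there, and Slc4a5 4.07, 3.9 and 2.31 CPM. Kl and Prlr passed the test under DESeq2, with adjusted p of 0.022 and 0.038.

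**Figure D2:**
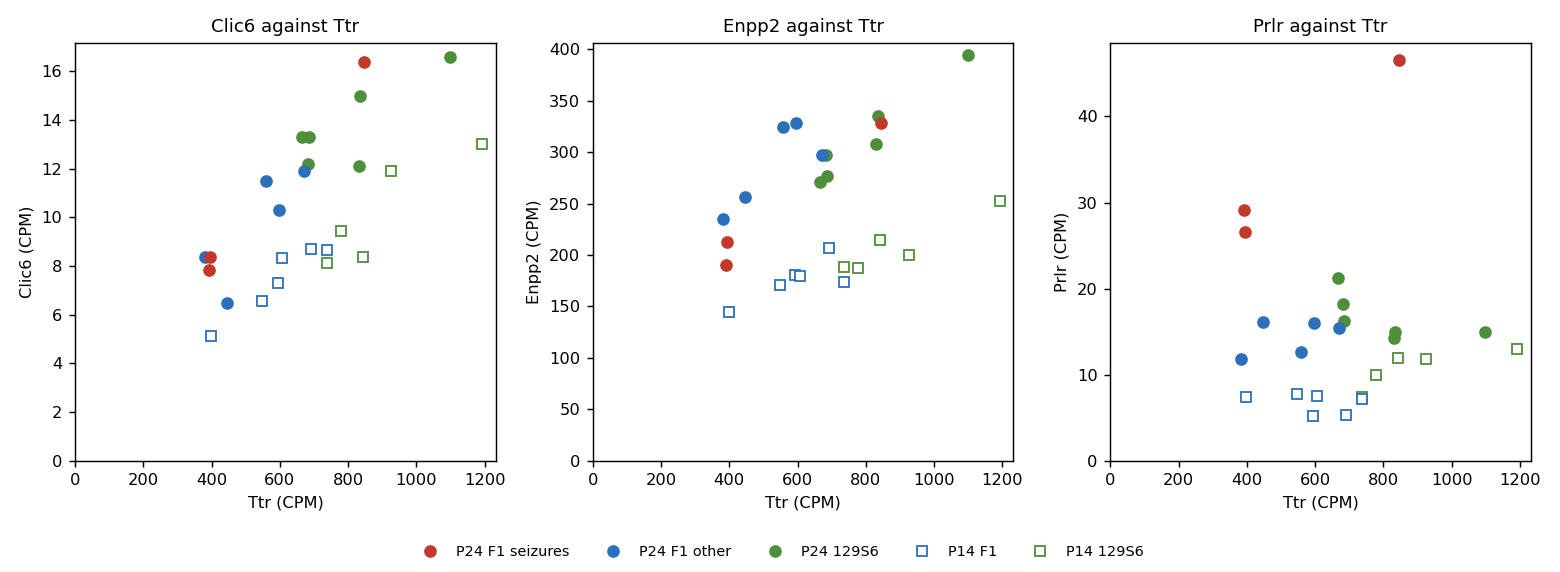
Clic6, Enpp2 and Prlr (CPM) against Ttr (CPM) on linear axes from 0; each point is 1 of 25 libraries, circles are P24, open squares P14, red seizures, blue other F1 and green 129S6. Clic6 and Enpp2 run along with Ttr, each mostly higher for its Ttr at P24 than at P14, and the 3 seizure libraries stand above the rest for Prlr.

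The genes outside the 10 that varied most like Ttr included further epithelial genes. Likeness was the Pearson r of the deviations of log2 CPM from the group means over 25 libraries, among 14507 genes whose log2 CPM averaged 0 or more. It is a description, since all genes of a library share its dissection and depth. The r values also draw on the seizure library with the highest Ttr, and r without it is not given here. Among the members r with Ttr was 0.901 for Clic6, 0.896 for Enpp2 and 0.856 for Folr1, and lowest for Prlr (0.491) and Sostdc1 (0.195). Outside the members the 8 highest were Slc31a1 (0.894), Pno1, Igf2, Igfbp2, Cd44, 1500015O10Rik, Calml4 and Prr32 (0.816). Of these, Igfbp2, 1500015O10Rik, Calml4 and Prr32 were on the list of other choroid plexus genes. The 8 genes most like Prlr were Wdr78 (0.853), Isg20l2, Ccdc77, Mfap3l, Trpm3, Slc16a9, Anxa2 and Rbm28 (0.747), of which none was among the 8 most like Ttr. They were not free of Ttr, since all 8 had positive slopes on it, from 0.114 (Rbm28) to 0.567 (Slc16a9). That of Trpm3 was called (0.405 ± 0.084, adjusted p = 0.0216). The member most like Prlr was the cotransporter gene Slc4a5, with an r of 0.677.

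Slopes were also read for a list of 40 other choroid plexus epithelium genes. Of these, 36 were tested, 3 were in the files but filtered, and 1 of the filtered genes, Mfrp, was at 0 in every library. Called positive slopes were found for 9 of the 36 and called negative slopes for none. Of all genes, 0.27% had a called positive and 0.145% a called negative slope. Slopes were positive for 34 of 36, with a median of 0.452 beside the members' 0.79. Tmem72 (1.15 ± 0.16, adjusted p = 0.000225), the potassium channel gene Kcnj13 (1.17 ± 0.21, adjusted p = 0.00803) and Calml4 (0.97 ± 0.18, adjusted p = 0.00893) were among them. Of 21 ependymal genes, which mark the ciliated lining of the ventricles, edgeR called no slope, 16 slopes were positive and the median was 0.231. Of these, 5 had an unadjusted p under 0.05, and DESeq2 called 0. Among all 15911 genes, 2199 slopes had an unadjusted p under 0.05. Of 20 leptomeningeal and fibroblast genes, 1 had a called slope, that of Igf2 (0.50 ± 0.07, adjusted p = 0.000437). Slopes were not limited to genes of the ventricles and membranes. Of 14 mature oligodendrocyte genes all 14 slopes were positive, with a median of 0.209. Of these, 1 was called and 8 had an unadjusted p under 0.05. Their summed level was 11916, 17190 and 11021 CPM in seizure libraries 1, 2 and 3, highest where Ttr was highest. All these list slopes rest on the same spread of Ttr as the member slopes. The member calls were lost without the seizure library with the highest Ttr. The list slopes without that library are not given here, so they are not separate support for the member slopes.

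**Figure D3:**
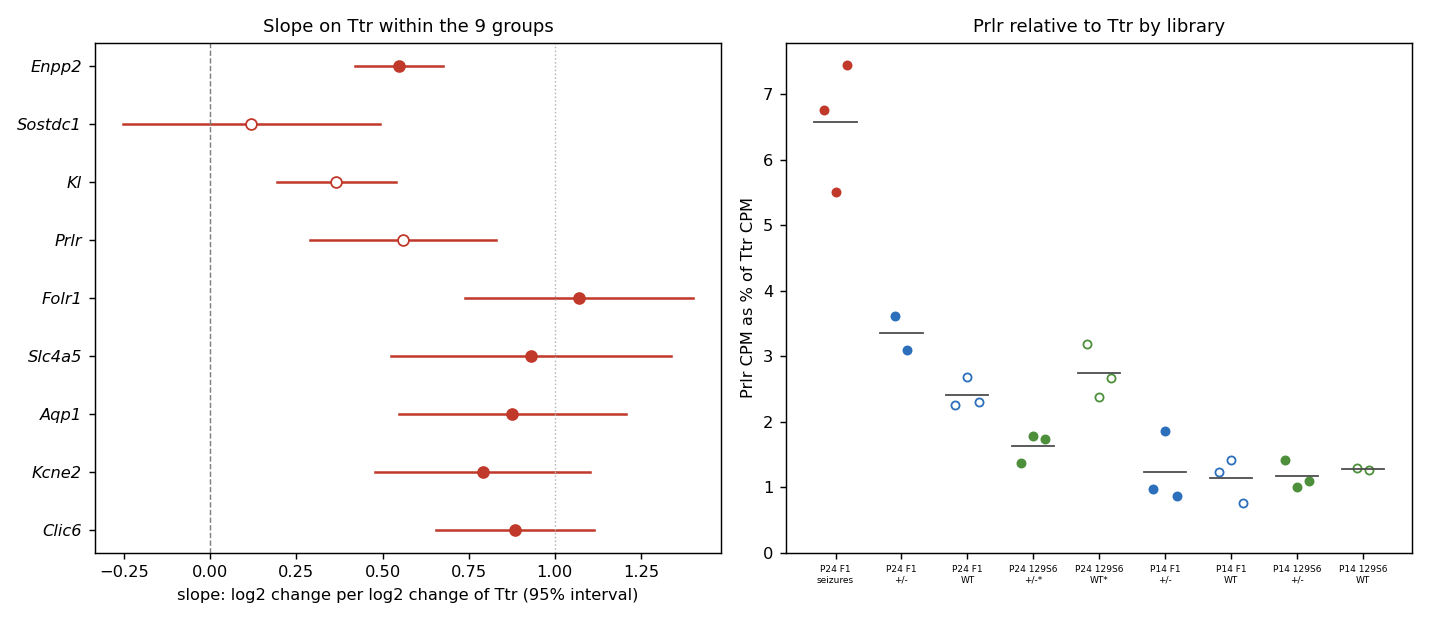
Left, slope of each member on Ttr within the 9 groups with its 95% interval; filled points passed the test, the dashed line is 0 and the dotted line 1. Right, Prlr CPM as a percent of Ttr CPM in each library, with the group mean as a bar; the seizure libraries lie at 5.5 to 7.45% and every other library lies below them.

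In the seizure libraries Prlr rose and the other members, apart from Enpp2, did not pass the test. Prlr had 26.6, 46.5 and 29.1 CPM in the seizure libraries, 16.1 and 11.8 CPM in P24 F1 Scn1a+/- without seizures, and 12.6, 16 and 15.4 CPM in P24 F1 wild type. All 3 seizure libraries lay above the other 5 P24 F1 libraries, and above all other libraries of the series. Prlr was 2.32-fold higher with seizures than in wild type (log2 fold change 1.21 ± 0.17, SE, adjusted p = 1.52e-06) and 2.47-fold higher than in Scn1a+/- mice without seizures (1.30 ± 0.20, adjusted p = 1.58e-05). These calls held in every alternative run, with log2 fold changes of 0.93 to 1.36 against wild type and 1.02 to 1.51 against Scn1a+/- without seizures when 1 library was left out.

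Against wild type 1 of the 10 members was called higher and 1 lower, where 12.4% of all genes were called higher and 10.1% lower (22.5% in all). Against Scn1a+/- without seizures 1 was called higher and none lower, where 8.72% of all genes were higher and 7% lower (15.7% in all). By edgeR 3 members had an unadjusted p under 0.05 in each comparison, and DESeq2 called 1 in each. Of all 15912 genes, 5376 had such an unadjusted p against wild type and 4395 against Scn1a+/- without seizures. Prlr was the 1 member of 10 whose seizure libraries did not overlap the other 5 P24 F1 libraries, and 20.8% of all genes did not overlap in this way (10.5% higher and 10.3% lower). The members' median log2 fold change was -0.039 against wild type, beside 0.00966 over all genes.

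Ttr itself had 394, 845 and 391 CPM in the seizure libraries, 446 and 382 CPM in Scn1a+/- without seizures and 558, 597 and 671 CPM in wild type. Seizure library 2 was above all of the others and seizure libraries 1 and 3 were near the 2 Scn1a+/- libraries, so the groups overlapped. The difference from wild type was -0.16 ± 0.20 (adjusted p = 0.613, 95% interval -0.56 to 0.23). Without seizure library 2 it was -0.63, with an adjusted p of 0.00434.

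Enpp2 fell against wild type, by 0.38 ± 0.13 on the log2 scale (adjusted p = 0.0285). It had 213, 328 and 190 CPM in the seizure libraries, 256 and 235 CPM in Scn1a+/- without seizures, and 324, 328 and 297 CPM in wild type. Seizure libraries 1 and 3 were the lowest of the 8, and library 2 was level with wild type. The call was lost without seizure library 1 (-0.30, adjusted p = 0.126) or 3 (-0.24, 0.116), without wild-type library 1 (-0.38, 0.067) or 2 (-0.36, 0.0823), under DESeq2 (0.0844), and with only the groups compared in the model (0.204). Mature oligodendrocyte genes moved in the same comparison: 8 of 14 were called lower and none higher, where 10.1% of all genes were lower and 12.4% higher. The summed level of the 14 was 11021 to 17190 CPM with seizures, 15947 to 16461 CPM in Scn1a+/- without seizures and 15075 to 17387 CPM in wild type. Their part in the Enpp2 result was not tested.

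Aqp1 had 2.83, 5.74 and 2.24 CPM in the seizure libraries, 2.77 and 3.39 CPM in Scn1a+/- without seizures, and 4.67, 5.43 and 5.36 CPM in wild type. Seizure library 2 reached wild-type levels and the other seizure libraries did not. The difference from wild type was -0.53 ± 0.24 (adjusted p = 0.115), and without seizure library 2 it was -1.02, with an adjusted p of 0.00139. The remaining members had log2 differences from wild type between -0.08 (Folr1) and 0.25 (Sostdc1), and for each the range of the seizure libraries held that of wild type. Kl had 25.1, 32.2 and 27.4 CPM with seizures, 26.4 and 22.2 CPM in Scn1a+/- without seizures and 29, 29.7 and 27.4 CPM in wild type.

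Against Scn1a+/- without seizures, Sostdc1 differed by 0.60 ± 0.25 (adjusted p = 0.104) and Clic6 by 0.52 ± 0.24 (adjusted p = 0.158). Sostdc1 had 7.32, 5.74 and 4.38 CPM with seizures and 5.11 and 2.89 CPM in Scn1a+/- without seizures. Both passed the test without seizure library 3 (0.75 with adjusted p = 0.0259, and 0.69 with adjusted p = 0.0336), and Sostdc1 also without Scn1a+/- library 1 (0.99, adjusted p = 0.0316).

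Prlr was also called at equal Ttr. That Prlr moved apart from Ttr with seizures was known when the question was set. The values here therefore describe the size of that difference and are not separate support for it. With the log2 CPM of Ttr in the model, Prlr was 2.5-fold higher with seizures than in wild type (1.32 ± 0.14, adjusted p = 9.08e-09), and its difference from Scn1a+/- without seizures was 1.10 ± 0.17 (adjusted p = 1.54e-05). As a share of Ttr, Prlr CPM averaged 6.57% ± 0.989 with seizures (SD, n = 3), 3.36% ± 0.366 in Scn1a+/- without seizures (n = 2) and 2.41% ± 0.233 in wild type (n = 3). These shares did not overlap. The Enpp2 difference from wild type at equal Ttr was -0.28 ± 0.07 (adjusted p = 0.0044). Against wild type 1 of 9 members was called higher and 1 lower, where 13.3% of all genes were higher and 11.7% lower (25% in all). Against Scn1a+/- without seizures 1 was called higher and none lower, where 9.28% of all genes were higher and 7.14% lower (16.4% in all). Kcne2 (0.35 ± 0.16) and Aqp1 (-0.38 ± 0.18) missed the threshold against wild type, each with an adjusted p of 0.122.

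**Figure D4:**
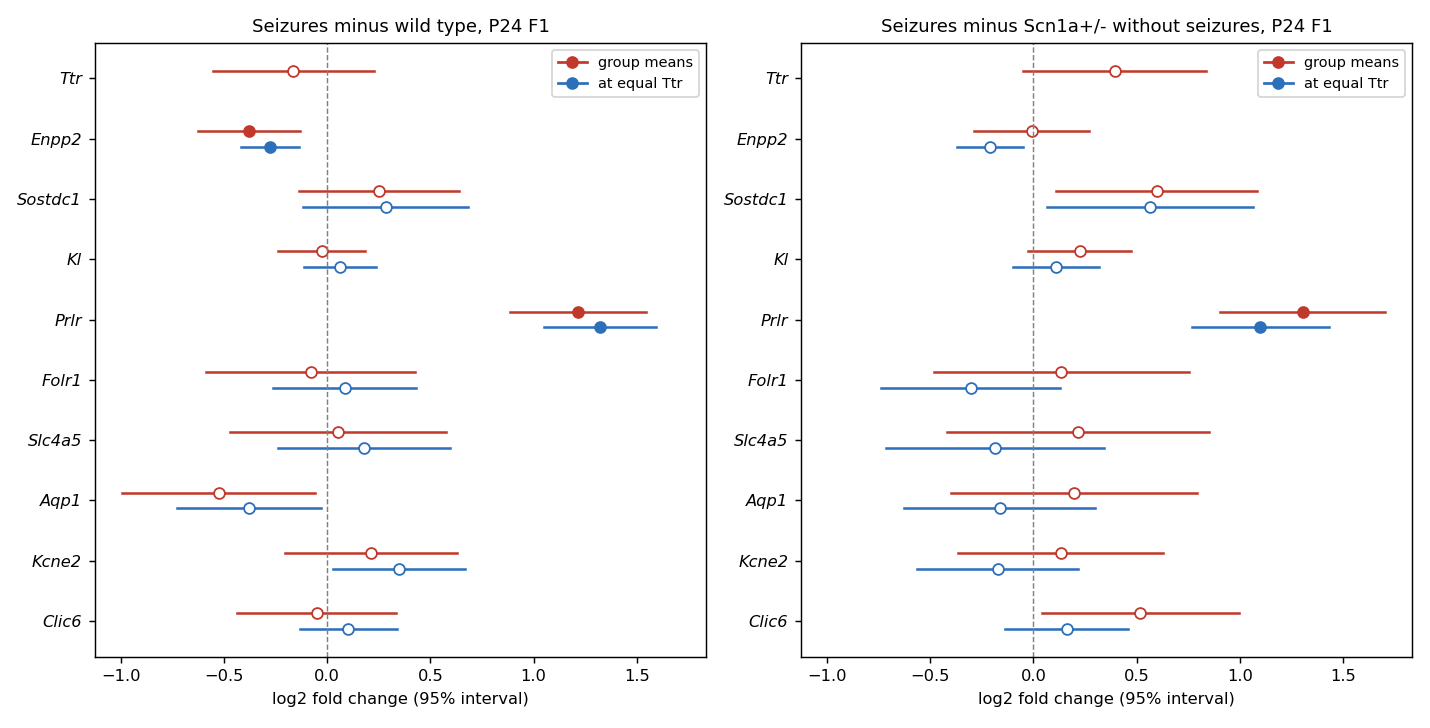
Log2 fold change of each member in the seizure libraries minus P24 F1 wild type (left) and minus P24 F1 Scn1a+/- without seizures (right), with 95% intervals, from the group means (red) and at equal Ttr (blue); filled points passed the test. Prlr lies at 1.10 to 1.32 in all 4 estimates.

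Other choroid plexus genes were called in both directions with seizures. On the list of 40, 3 of 36 were called higher and 3 lower against wild type, where 12.4% of all genes were higher and 10.1% lower. Against Scn1a+/- without seizures 4 were called higher and none lower, where the shares of all genes were 8.72% and 7%. At equal Ttr 7 were higher and 2 lower against wild type (13.3% and 11.7% of all genes), and 4 higher and 3 lower against Scn1a+/- without seizures (9.28% and 7.14%). Car12, a membrane carbonic anhydrase, was higher than in wild type by 1.15 ± 0.16 (adjusted p = 2.18e-06), with 52.2 to 127 CPM in the seizure libraries, 45.1 to 45.7 CPM in Scn1a+/- without seizures and 39.9 to 45.8 CPM in wild type. The transporter gene Slc29a4 was higher by 0.55 ± 0.08 (adjusted p = 7.67e-06), and the sulfate transporter gene Slc13a4 fell by 0.83 ± 0.19 (adjusted p = 0.00126). The summed level of the list was 442, 631 and 486 CPM with seizures, 411 to 447 CPM in Scn1a+/- without seizures and 443 to 460 CPM in wild type. The 21 ependymal genes summed to 65.4 to 97.8 CPM with seizures, 75.9 to 88.4 CPM in Scn1a+/- without seizures and 77.3 to 84.2 CPM in wild type. The part of these cells in the Prlr result was not tested.

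Genes of the prolactin receptor pathway were examined beside Prlr. The receptor signals through the kinase JAK2 and STAT proteins, and SOCS proteins damp it; cytokine receptors of other ligands use many of the same genes. Of 18 genes tested, 5 were called higher and 1 lower against wild type, where 12.4% of all genes were higher and 10.1% lower. Against Scn1a+/- without seizures the counts were also 5 and 1, where the shares of all genes were 8.72% and 7%. The hormone gene Prl was filtered. Socs3 rose by 3.06 ± 0.30 against wild type (adjusted p = 1.56e-09), with 8.72 to 28 CPM with seizures, 1.47 to 2.17 CPM in Scn1a+/- without seizures and 1.3 to 2.36 CPM in wild type. Stat3 rose by 0.95 ± 0.09 (adjusted p = 1.06e-09) and averaged 95.5 ± 16.1 CPM with seizures (SD, n = 3), 46.4 ± 1.58 CPM in Scn1a+/- without seizures (n = 2) and 49.4 ± 0.203 CPM in wild type (n = 3). The adaptor gene Grb2 rose by 0.52 ± 0.08 (adjusted p = 4.4e-06), and Irs1, an insulin receptor substrate, had a log2 fold change of -0.50 ± 0.09 (adjusted p = 0.00012). The list was not measured in choroid plexus cells alone, and its part in the Prlr result was not tested. Of 8 tested genes related to klotho as a co-receptor, the receptor gene Fgfr1 (0.48 ± 0.08, adjusted p = 1.18e-05) and the phosphate transporter gene Slc20a1 (0.43 ± 0.07, adjusted p = 1.71e-05) were called higher against wild type, and none of the 8 was called lower.

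Between Scn1a+/- mice without seizures and wild type at P24 in F1, Ttr, Enpp2, Aqp1 and Clic6 were lower in both Scn1a+/- libraries than in all wild-type libraries, as were Kl and Slc4a5, but none passed the test. These are 6 of 10 members, where 14.8% of all genes were lower without overlap and 14.3% higher (29.1% in all). Ttr had 446 and 382 CPM in Scn1a+/- and 558, 597 and 671 CPM in wild type, a difference of -0.56 ± 0.23. Enpp2 (256 and 235 CPM in Scn1a+/-, 324, 328 and 297 CPM in wild type) differed by -0.37 ± 0.14, and Aqp1 by -0.72 ± 0.29. Clic6 (6.49 and 8.38 CPM in Scn1a+/-, 11.5, 10.3 and 11.9 CPM in wild type) differed by -0.57 ± 0.24. Each adjusted p was 0.833, and none of the 10 members was called by edgeR or DESeq2, as for 0% of all genes. An unadjusted p under 0.05 was found for 4 members, and for 889 of all 15912 genes. Differences were negative for 9 of 10 members, with a median of -0.298 beside -0.00272 over all genes. At equal Ttr the differences were -0.07 ± 0.09 for Enpp2, -0.06 ± 0.16 for Clic6 and -0.22 ± 0.24 for Aqp1. Others stood above 0 there, with 0.39 ± 0.23 for Folr1 (-0.21 ± 0.31 without Ttr in the model), 0.36 ± 0.28 for Slc4a5 (-0.16 ± 0.32 without it) and 0.22 ± 0.18 for Prlr (-0.09 ± 0.21 without it). Kcne2, the 1 member with a positive difference without Ttr in the model (0.08 ± 0.25), stood at 0.52 ± 0.21 at equal Ttr (adjusted p = 0.268) and was the 1 member with an unadjusted p under 0.05. None of 9 was called there by either tool. Of all genes edgeR called 0% there, while DESeq2 called 103 genes. Of all 15911 genes, 2234 had an unadjusted p under 0.05 there.

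In P24 129S6 all labelled Scn1a+/- libraries lay above all labelled wild-type libraries for 5 of 10 members and below them for 1, Prlr, where 5.84% of all genes lay above and 4.88% below (10.7% in all). The other 4 members overlapped, and none of the 10 passed the test. Ttr had 1099, 835 and 831 CPM in labelled Scn1a+/- and 666, 685 and 683 CPM in labelled wild type, without overlap (0.44 ± 0.20, adjusted p = 1). Kl had 37.6, 28.3 and 31.1 CPM in labelled Scn1a+/- and 24.3, 27.2 and 25 CPM in labelled wild type, also without overlap (0.33 ± 0.11, adjusted p = 1). Prlr ran the other way, with 15, 14.9 and 14.3 CPM in labelled Scn1a+/- and 21.2, 16.2 and 18.2 CPM in labelled wild type (-0.32 ± 0.19, adjusted p = 1). At equal Ttr the Prlr difference was -0.56 ± 0.16 (adjusted p = 0.802). None of the 10 members and 0% of all genes were called by edgeR or DESeq2. An unadjusted p under 0.05 was found for 3 members, and for 471 of all 15912 genes. Differences were positive for 9 of 10 members, with a median of 0.286.

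At P14 the genotypes were closer. In F1 the members' differences ran from -0.50 (Slc4a5) to -0.06 (Folr1), with a median of -0.104, and Ttr differed by -0.09 ± 0.20. In 129S6 they ran from -0.14 (Slc4a5) to 0.33 (Aqp1), with a median of 0.116, and Prlr differed by 0.0011 ± 0.22. No member was called by edgeR or DESeq2 in either strain, none had an unadjusted p under 0.05, and 0% of all genes were called. Of all 15912 genes, 724 had an unadjusted p under 0.05 in F1 and 391 in 129S6. The difference of the genotype effects between strains was also called for no member by edgeR or DESeq2 at either age (0.00628% of all genes at P24, 0% at P14). At P24 5 members had an unadjusted p under 0.05, beside 988 of all 15912 genes. At P14 none did, beside 495 of all genes. The P24 values take the 129S6 genotypes as labelled, and the 1 gene called there was Scn1a itself (-0.64 ± 0.11, adjusted p = 0.0473).

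F1 libraries had less Ttr than 129S6 libraries at both ages, over both genotypes and without the seizure group. At P24 Ttr ran from 382 to 671 CPM in F1 (median 558, n = 5) and from 666 to 1099 CPM in 129S6 (median 758, n = 6), overlapping at the edge, a difference of -0.66 ± 0.15 (adjusted p = 0.00578). At P14 it ran from 398 to 737 CPM in F1 (median 600, n = 6) and from 737 to 1192 CPM in 129S6 (median 843, n = 5), meeting at the edge (-0.58 ± 0.15, adjusted p = 0.0199). The P24 call was lost without P24 F1 Scn1a+/- library 2 (-0.60, adjusted p = 0.0862). The P14 call was lost under DESeq2 (0.107) and without P14 129S6 Scn1a+/- library 3 (-0.46, 0.103), 129S6 wild-type library 2 (-0.51, 0.147), F1 Scn1a+/- library 2 (-0.47, 0.083) or F1 wild-type library 2 (-0.54, 0.0658).

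At P24 2 of 10 members were lower in F1 and none higher, where 2.87% of all genes were lower and 3.46% higher (6.33% in all). The second was Clic6, with 6.49 to 11.9 CPM in F1 and 12.1 to 16.6 CPM in 129S6, without overlap, as for 6.22% of all genes (-0.58 ± 0.16, adjusted p = 0.0226). Its call was lost without F1 Scn1a+/- library 1 or 2, F1 wild-type library 2, labelled 129S6 Scn1a+/- library 1 or 2, or labelled 129S6 wild-type library 1 or 2 (-0.68 to -0.49, adjusted p = 0.0515 to 0.0943). Aqp1 (-0.57 ± 0.19, adjusted p = 0.0671) and Slc4a5 (-0.61 ± 0.21, adjusted p = 0.0803) missed the threshold, and Prlr differed by -0.21 ± 0.14 (adjusted p = 0.414).

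At P14 4 of 10 members were lower in F1 and none higher, where 1.66% of all genes were lower and 2.04% higher (3.7% in all). Prlr ran from 5.17 to 7.8 CPM in F1 (median 7.28) and from 7.43 to 13 CPM in 129S6 (median 11.8), overlapping at the edge (-0.70 ± 0.16, adjusted p = 0.00746). Kcne2 ran from 2.29 to 4.07 CPM in F1 (median 3.33) and from 4.08 to 6.7 CPM in 129S6 (median 5.83), just without overlap, as for 4.48% of all genes (-0.77 ± 0.19, adjusted p = 0.0116). Kl was lower in F1 too, with a difference of -0.35 ± 0.10 (adjusted p = 0.0339). Without P14 129S6 wild-type library 2 the calls of Prlr (-0.64, adjusted p = 0.0665) and Kcne2 (-0.57, adjusted p = 0.216) were lost. That of Kl was lost without 129S6 wild-type library 2, 129S6 Scn1a+/- library 1 or 3, F1 Scn1a+/- library 2 or 3, or F1 wild-type library 2 or 3 (-0.36 to -0.27, adjusted p = 0.0501 to 0.306).

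At equal Ttr no member differed by strain past the threshold. As for every equal-Ttr value here, the adjustment used the within-group slopes, whose member calls were lost without seizure library 2. The strain differences at equal Ttr without that library are not given here. At P24 the differences ran from -0.04 (Sostdc1) to 0.34 (Folr1), where 5.13% of all genes were called (2.62% higher and 2.51% lower), and that of Clic6 was 0.0097 ± 0.12 (adjusted p = 0.982). At P14 Prlr kept the difference farthest below 0, -0.37 ± 0.16 (adjusted p = 0.281), where 2.58% of all genes were called (1.54% higher and 1.04% lower). By edgeR 1 of 9 members had an unadjusted p under 0.05 at each age, and DESeq2 called none. Of all 15911 genes, 3107 had such an unadjusted p at P24 and 2062 at P14. The equal-Ttr form of the strain and age comparisons was added after the members had been seen to differ between strains together with Ttr. Without Ttr in the model, leptomeningeal and fibroblast genes moved with strain too: 1 of 20 was higher and 4 lower in F1 at P24, and none higher and 7 lower at P14. Of all genes 3.46% were higher and 2.87% lower at P24, and 2.04% and 1.66% at P14. The part of the leptomeningeal and fibroblast genes in the members' strain differences was not tested. In the same model 1 of the 36 other epithelial genes was higher and 2 lower in F1 at P24, and 1 higher and 6 lower at P14, among them Tmem72 at P14 (-1.28 ± 0.23, adjusted p = 0.000489). The iodide transporter gene Slc5a5 was the one higher, by 1.20 ± 0.10 at P24 (adjusted p = 1.44e-10).

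**Figure D5:**
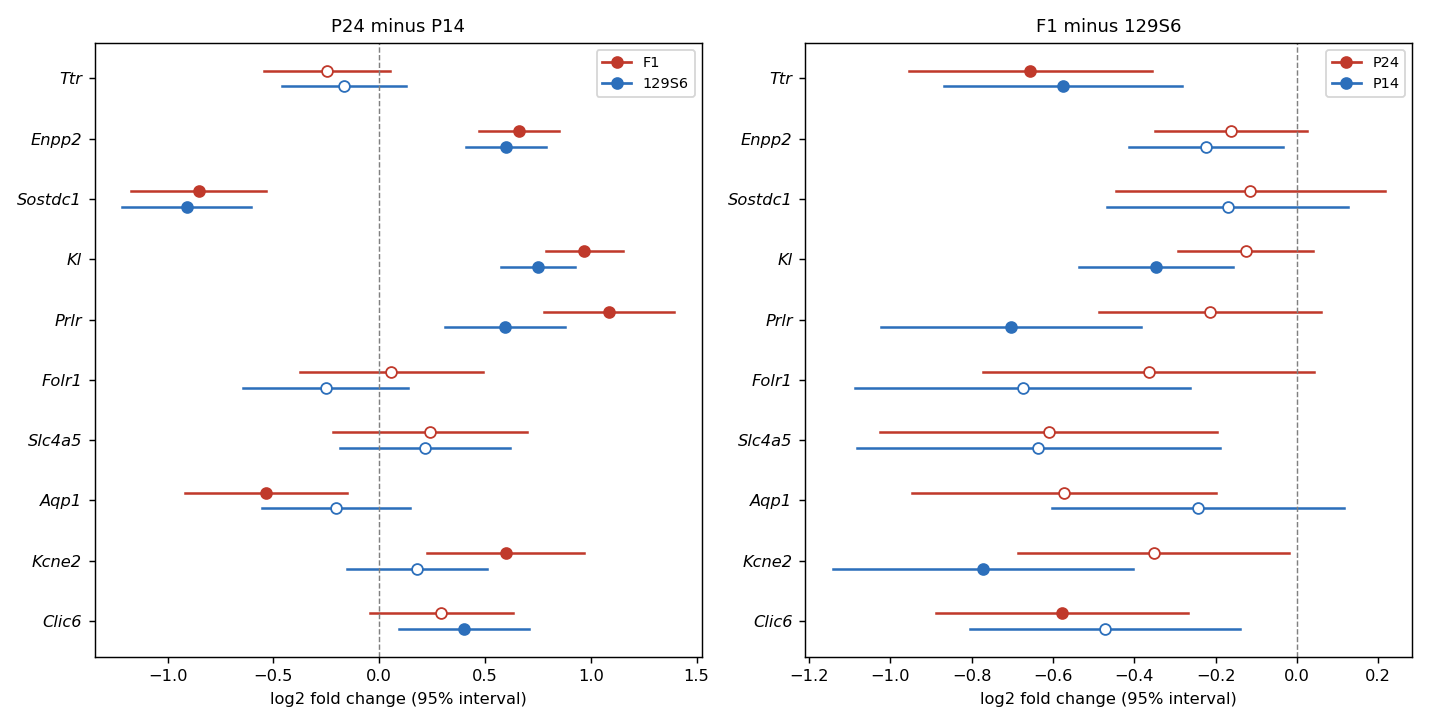
Log2 fold change of each member for P24 minus P14 in F1 and 129S6 (left) and for F1 minus 129S6 at P24 and P14 (right), with 95% intervals; filled points passed the test and the seizure group is left out. Enpp2, Kl and Prlr lie above 0 and Sostdc1 below 0 with age in both strains, and all members lie below 0 in the strain panel.

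With age the members parted from Ttr and from each other. Ttr did not pass the test between P24 and P14 in F1 (-0.25 ± 0.15, adjusted p = 0.205) or 129S6 (-0.17 ± 0.15, adjusted p = 0.417), while Enpp2, Kl and Prlr rose and Sostdc1 fell in both strains. In F1 4 of 10 members were higher and 2 lower at P24, where 19% of all genes were higher and 19.4% lower (38.4% in all). In 129S6 4 were higher and 1 lower, where 17.3% of all genes were higher and 17.1% lower (34.3% in all).

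Kl ran from 22.2 to 29.7 CPM at P24 (median 27.4) and from 11.4 to 14.9 CPM at P14 (median 13.8) in F1, and from 24.3 to 37.6 CPM at P24 (median 27.8) and from 14.5 to 20.2 CPM at P14 (median 17.8) in 129S6. The ages did not overlap in either strain, as for 24.9% of all genes in F1 (12.3% higher and 12.6% lower at P24) and 24.4% in 129S6 (12.1% and 12.4%). Its log2 fold change was 0.97 ± 0.09 in F1 (adjusted p = 4.73e-10) and 0.75 ± 0.09 in 129S6 (adjusted p = 5.08e-08). Of 8 tested genes related to klotho, 1 was called higher and none lower with age in F1, and 1 higher and 2 lower in 129S6. The shares of all genes were 19% higher and 19.4% lower in F1, and 17.3% and 17.1% in 129S6. The receptor gene Fgfr2 rose in F1 (0.41 ± 0.07, adjusted p = 3.64e-05) and in 129S6 (0.32 ± 0.07, adjusted p = 0.000771), and Trpv6, a calcium channel gene, and Slc20a1 fell in 129S6 by 0.39 ± 0.13 and 0.15 ± 0.05 (adjusted p = 0.018 and 0.0278).

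Prlr ran from 11.8 to 16.1 CPM at P24 (median 15.4) and from 5.17 to 7.8 CPM at P14 (median 7.28) in F1, and from 14.3 to 21.2 CPM at P24 (median 15.6) and from 7.43 to 13 CPM at P14 (median 11.8) in 129S6. No P24 library overlapped a P14 library of its strain. The rise was 1.09 ± 0.16 in F1 (adjusted p = 1.56e-06) and 0.60 ± 0.14 in 129S6 (adjusted p = 0.00155). The difference between these rises was 0.49 ± 0.22 and did not pass the test (adjusted p = 0.586). The age effect differed between strains for no member by edgeR or DESeq2 (0.00628% of all genes by edgeR). An unadjusted p under 0.05 was found for 1 member, and for 1295 of all 15912 genes. Of 18 prolactin pathway genes 2 were higher and 4 lower with age in F1, where 19% of all genes were higher and 19.4% lower. In 129S6 2 were higher and 3 lower, where 17.3% of all genes were higher and 17.1% lower. Stat5a, the classical STAT of this receptor, fell with age by 1.37 ± 0.17 in F1 (adjusted p = 1.04e-07) and by 1.13 ± 0.17 in 129S6 (adjusted p = 2.5e-06), while the adaptor gene Gab1 rose by 0.38 ± 0.08 in F1 and by 0.30 ± 0.08 in 129S6 (adjusted p = 0.000194 and 0.00293).

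Enpp2 ran from 235 to 328 CPM at P24 and from 145 to 207 CPM at P14 in F1, and from 271 to 394 CPM at P24 and from 187 to 253 CPM at P14 in 129S6, without overlap in either strain. It rose by 0.66 ± 0.10 in F1 (adjusted p = 1.55e-06) and by 0.60 ± 0.10 in 129S6 (adjusted p = 9.62e-06). All 14 mature oligodendrocyte genes rose with age in both strains, with medians of 1.31 in F1 and 1.33 in 129S6. Of all genes 19% were called higher in F1 and 17.3% in 129S6. The part of the oligodendrocyte genes in the Enpp2 rise was not tested.

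Sostdc1 ran from 2.89 to 5.48 CPM at P24 (median 4.67) and from 6.05 to 9.2 CPM at P14 (median 7.95) in F1, and from 2.53 to 6.43 CPM at P24 (median 4.88) and from 7.84 to 10.1 CPM at P14 (median 9.57) in 129S6. Again the ages did not overlap. It fell by 0.85 ± 0.16 in F1 (adjusted p = 9.26e-05) and by 0.91 ± 0.16 in 129S6 (adjusted p = 2.32e-05). Kcne2 rose in F1 (0.60 ± 0.19, adjusted p = 0.012), a call lost without P24 F1 Scn1a+/- library 1 (0.52, adjusted p = 0.0612), and Aqp1 fell there by 0.53 ± 0.20 (adjusted p = 0.03), a call lost without P24 F1 Scn1a+/- library 1 or 2, P24 wild-type library 1, P14 Scn1a+/- library 1, or P14 wild-type library 1 or 3 (-0.62 to -0.38, adjusted p = 0.0502 to 0.159). Clic6 rose in 129S6 (0.40 ± 0.16, adjusted p = 0.046), a call lost under DESeq2 (0.0901) and without any 1 of 9 of the 11 libraries (0.31 to 0.49, adjusted p = 0.0507 to 0.214), the exceptions being labelled P24 Scn1a+/- library 3 and P14 Scn1a+/- library 3.

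At equal Ttr the same 5 members were called with age in 129S6, and the calls in F1 differed from those without Ttr in the model. In F1 Enpp2, Kl, Prlr, Slc4a5, Kcne2 and Clic6 were higher at P24 and Sostdc1 lower, 7 of 9 members, and the call of Aqp1 was lost (-0.29 ± 0.15, adjusted p = 0.131), where 18.5% of all genes were higher and 19.4% lower (37.9% in all). In 129S6 Enpp2, Kl, Prlr and Clic6 were higher and Sostdc1 lower, where 17.2% of all genes were higher and 17.2% lower (34.4% in all). Prlr differed by 1.22 ± 0.13 in F1 (adjusted p = 1.01e-08) and by 0.70 ± 0.12 in 129S6 (adjusted p = 2.59e-05), and Clic6 by 0.54 ± 0.11 and 0.57 ± 0.10 (adjusted p = 0.000191 and 2.02e-05). Of the 36 other epithelial genes 12 were higher and 4 lower with age in F1 at equal Ttr, and 8 higher and 7 lower in 129S6. Without Ttr in the model 7 were higher and 4 lower in F1, where 19% of all genes were higher and 19.4% lower. In 129S6 1 was then higher and 7 lower, where 17.3% of all genes were higher and 17.1% lower. Igfbp2, which encodes a binding protein of insulin-like growth factors, fell without Ttr in the model by 0.74 ± 0.07 in F1 (adjusted p = 1.32e-09) and by 0.72 ± 0.07 in 129S6 (adjusted p = 1.1e-09).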

How the data were processed

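Per the labels' protocols, flash-frozen hippocampi were extracted with TRIzol and libraries made with the TruSeq RNA Library Preparation Kit v2, which does not mark strand. The authors deposited raw gene counts per library. Tools and build, from the submitters' processing notes, were HTSeq 0.6.1p1, TopHat2 2.1.0, CASAVA and mm10. Neither annotation nor strand setting is given in the sources used here, and reads of overlapping genes, such as lncRNAs at Ttr, Prlr and Folr1, cannot be told apart. A deposited table of normalized values was not used.

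In R 4.3.3 the counts of all 9 groups were fitted in 1 quasi-likelihood model (edgeR 4.0.16, on limma 3.58.1) with TMM scaling and filterByExpr (minimum count 10), with 16 residual degrees of freedom and a common biological coefficient of variation of 7.57%. The standard error is the log2 fold change over the square root of F, and intervals are 95%. The slope model adds the log2 CPM of Ttr (prior count 2). DESeq2 1.42.0 and other settings were alternatives. In simulated counts for seizures minus wild type (15654 genes), 64% of 1.5-fold and 93% of 2-fold changes were recovered with 6 false calls, and 83% of 200 slopes of 1 (15652 genes, 2 false calls). The simulated slopes kept the measured spread of Ttr, seizure library 2 included. Counts were drawn separately for each gene, so the false calls do not cover variation that the genes of a library share. Exonic lengths are the union of all exons of a gene in GENCODE vM39, by symbol. Promoters and positions are from RefSeq GRCm38.p6.

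The members and gene lists were chosen with earlier results of these data known. Named were all members, Scn1a, up to 4 called genes of each list per comparison with the smallest p (up to 2 if none was called), and the 8 genes most like Ttr and most like Prlr.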

Additional observations from a re-analysis of the deposited data

How the results depend on the processing

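The Prlr calls in the seizure comparisons, with and without Ttr in the model, held under every alternative run, with adjusted p of at most 0.00811. All of these runs drew on the same series in which Prlr was already a known case. Counts of called members moved as follows. The share of all genes called in each setting is not given here, so these counts show only how the member calls moved. Without a filter on low counts they were 3 for seizures against Scn1a+/- without seizures, 1 for Scn1a+/- against wild type in P24 F1, 4 for F1 against 129S6 at P24, 8 at P14, and 2 for the genotype by strain difference at P24, which takes the doubted P24 129S6 genotypes as labelled. Without the seizure libraries those last 4 counts were 2, 4, 8 and 4, and 1 slope was called. With only the groups compared in the model 1 member was called for seizures against wild type, 1 for Scn1a+/- against wild type in P24 F1, 1 for the labelled genotypes of P24 129S6, 5 by strain at P24 and 8 at P14. DESeq2 called 1 for seizures against wild type. With 1 library left out the counts were 1 to 4 for seizures against wild type, 1 to 3 against Scn1a+/- without seizures (1 to 2 at equal Ttr), 0 to 2 by strain at P24 (0 to 1 at equal Ttr), 0 to 5 at P14, and 0 to 8 for slopes. The cause was not tested. Over the members and all comparisons run, leaving out 1 library ended 57 calls of a member and added 31, and another setting ended 12 and added 48.

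No paired analysis was possible because the library numbers run over the whole series and pair nothing. Members with few counts per library, such as Kcne2 and Folr1, have wide intervals, and a p that misses the threshold does not show that their levels did not differ. Groups hold 2 or 3 pools, a group left with 1 library is assumed to vary like the others, and differences in sex or time after seizure were not tested.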

Other observations

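Tissue next to the hippocampus was looked at through lists other than ventricular ones. Of 17 thalamic and habenular genes, edgeR and DESeq2 called no slope on Ttr, 1 had an unadjusted p under 0.05, and the median slope was -0.0975. Among all 15911 genes, 2199 slopes had such an unadjusted p. With seizures 1 of the 17 was higher and 5 were lower than in wild type, where 12.4% of all genes were higher and 10.1% lower. Plekhg1 was among those lower (-0.43 ± 0.10, adjusted p = 0.000944), while Calb2, which encodes the calcium-binding protein calretinin, was higher (0.67 ± 0.09, adjusted p = 1.78e-06). Of 10 hippocampal neuron genes neither tool called a slope, 3 had an unadjusted p under 0.05, and the median slope was -0.15. With seizures 3 of these were higher and 4 lower than in wild type, beside the same shares of all genes. Dsp stood at -1.45 ± 0.12 (adjusted p = 4.25e-11) and Fibcd1 at -1.06 ± 0.12 (adjusted p = 3.14e-08).

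Among the 8 genes that varied most like Ttr within groups, Cd44, which encodes a cell surface receptor of hyaluronan, averaged 35.7 ± 12.2 CPM in the seizure libraries (SD, n = 3), 4.4 ± 0.0217 CPM in Scn1a+/- without seizures (n = 2) and 3.65 ± 0.21 CPM in wild type (n = 3). Of the genes most like Prlr, Trpm3, a cation channel gene, averaged 106 ± 33.6 CPM with seizures (n = 3), 114 ± 1.59 CPM in Scn1a+/- without seizures (n = 2) and 114 ± 7.49 CPM in wild type (n = 3).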
